A study of Cynoglossus semilaevis with 6 samples.

Results

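The transcripts described here were the 2364 of 34751 annotated features that carry the XR_ prefix, which RefSeq gives to predicted non-coding RNAs, and that lie off the W and Z sex chromosomes. Another 49 features with this prefix lay on W or Z and were left out, and 0 features carried NR_, the prefix of curated non-coding RNAs. The RNA came from livers of female half-smooth tongue sole (Cynoglossus semilaevis), a flatfish reared for 10 months in ponds at 30 ppt. After a period in tanks at 30 ppt, salinity for the LS_L group was lowered daily over 3 days towards a target of 15 ppt. Fish of the HS_L group stayed at 30 ppt, and the experiment lasted 60 days. There were 3 libraries in each group, and each library pooled 3 livers from 1 tank, so a p-value here measures the spread between tank pools. In such bulk samples, fewer cells of a type and less RNA per cell cannot be told apart.

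A long non-coding RNA is transcribed, and often spliced and given a poly(A) tail, like an mRNA, but holds no long reading frame. Some of these RNAs act on the transcription of neighbouring genes, and many are rare or made in a few cell types only. RefSeq also gives the XR_ prefix to variants of protein-coding genes whose reading frame is broken, and nonsense-mediated decay is the pathway that degrades mRNAs with a premature stop codon.

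The 2364 transcripts were a mixture of both kinds. A match to the RefSeq gene table of assembly Cse_v1.0 was found by accession for 755 of them and by position for 1238. The study's table of differences between the groups named 3, and 368 had no match. Matches by accession or in the study's table placed 657 in long non-coding RNA genes, 97 in protein-coding genes and 2 in pseudogenes. A position match whose overlap was at least 0.5 of the joint span (first to last base of both features) added 219 at long non-coding RNA genes and 441 at protein-coding genes. Matching by position did not use the strand, so a member matched in this way can lie opposite its gene. A further 578 had at least 0.5 of their own span within a gene but matched it less closely, and 370 were given no gene type. The transcripts were short, with a median length of 590.5 bases (quartiles 343 and 1258) against 2150.0 bases (quartiles 1388 and 3329) for the 29992 coding transcripts off W and Z. Among them, 222 (9.39%) were on scaffolds not placed on a chromosome, against 4.38% of the coding transcripts. Chromosome 8 held the most placed members, 182, and chromosome 18 held the most for its number of coding transcripts, 11.4 per 100, against 5.78 per 100 on chromosome 1.

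Between 16176689 and 19428740 reads per library were recovered from the deposited RPKM values (reads on a transcript, divided by its length and by the size of the library), and size factors lay between 0.8676 and 1.2045. Of 18 liver markers, 8 were found by name. Their summed normalized reads (recovered reads divided by the size factor) came to 676308 to 1133357 in LS_L and 872054 to 1646415 in HS_L, so the libraries carried liver RNA. Not all 8 were high. The marker cp had 14.6 to 55.5 normalized reads, and ttr had 446, 547 and 482 in LS_L against 18.3, 41.6 and 843 in HS_L. Genes of other tissues varied widely between libraries of a group. The 3 exocrine pancreas genes found of 15 summed to 448 to 2223 in LS_L against 1573 to 69579 in HS_L, with the highest value in HS_L_2. The 3 skeletal muscle genes found of 11 summed to 1.15 to 380.2 in LS_L against 32.9 to 717 in HS_L, and the 4 egg and oocyte genes found of 8 to 5.81 to 764 against 38.2 to 1009. For leukocytes, 2 of 6 markers were found: ptprc was at 0 in every library, and coro1a, an actin-binding protein of leukocytes, had 1049, 297 and 467 normalized reads in LS_L against 946, 259 and 306 in HS_L. The only red blood cell marker found of 6, alas2, was at 0. Reads that fell on more than 1 feature were given to neither in counting, so a 0 does not show that a gene was silent.

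Most of the non-coding transcripts carried few reads or none. No read fell on 972 of them (41.1%) in any library, and 39.6% of the coding transcripts were likewise empty. At least 10 reads over all 6 libraries fell on 785 (33.2%), against 45.4% of coding transcripts, and a mean scaled RPKM of at least 1 was reached by 370 (15.7%), against 26.9%. Single libraries reached 919, 981 and 830 of the members with at least 1 read in LS_L and 1095, 945 and 874 in HS_L. The groups overlapped in this count, and the highest library was HS_L_1. At least 1 read in every library was found for 588 members, and more than 3 reads in at least 1 library for 843.

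Reads were found mainly on transcripts that shared no genomic span with another feature. Of the 885 members with no overlap on either strand, 147 (16.6%) had no read. The share was 28.8% for the 434 that overlapped a feature on the opposite strand only, 64.6% for the 548 that shared their strand with a coding transcript, and 69.6% for the 497 that shared it with non-coding or unclassified features only. It went with the number of features overlapped on the same strand: 20.6% of members with 0 such features were empty, 59.3% with 1, 70.8% with 2, 67.0% with 3, 74.4% with 4 and 85.4% with 5 or more. Counting was done by HTSeq in union mode, which gives a read that falls on more than 1 feature to neither, and its part in these shares was not tested. Coding transcripts had 6.81% empty features where they overlapped nothing, and 4.08% where they overlapped a feature on the opposite strand only. Their share was 70.7% where the strand was shared with another coding transcript. Position in the assembly also went with detection, since 73 of the 166 non-overlapping members on unplaced scaffolds were empty (44.0%) against 74 of the 719 placed on chromosomes (10.3%). By gene type, 30.6% of the 657 members placed in long non-coding RNA genes by accession or the study's table were empty. The share was 60.8% for the 97 placed by accession in protein-coding genes. For members matched by position it was 42.9% of 219 at long non-coding RNA genes and 60.3% of 441 at protein-coding genes.

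**Figure D1:**
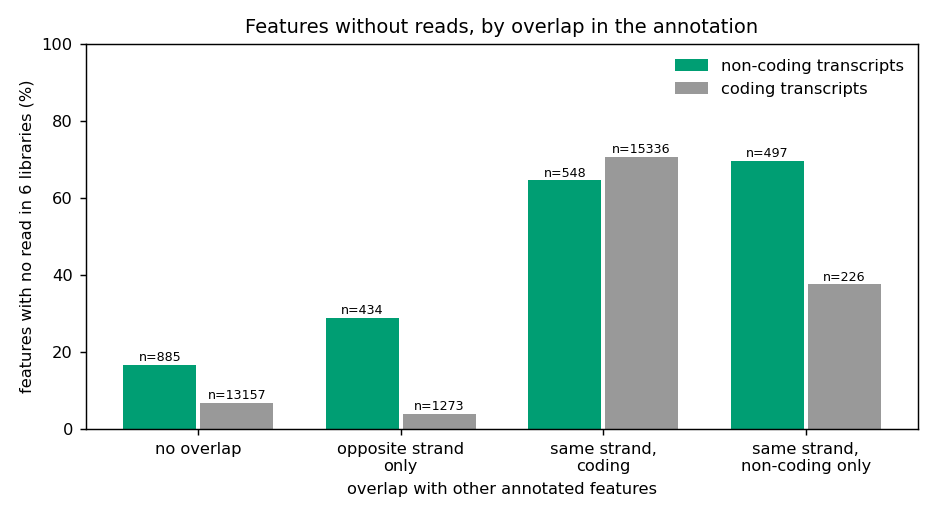
Percentage of features with no read in all 6 libraries (vertical axis) by how they overlap other annotated features (horizontal axis), for non-coding transcripts (green) and coding transcripts (grey), with the number of features above each bar. Among non-coding transcripts the share was 16.6% with no overlap and 69.6% where the strand was shared with non-coding or unclassified features only.

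Together the 2364 transcripts held a small share of the reads, which did not separate the salinities. They took 0.688%, 0.462% and 0.44% of recovered reads in LS_L_1, LS_L_2 and LS_L_3, against 0.681%, 0.406% and 0.523% in HS_L_1, HS_L_2 and HS_L_3. The groups overlapped fully, and library 1 of each group was the highest. These are shares of all recovered reads, to which size factors were not applied. Scaling RPKM by size factors multiplied LS_L_1 by 0.786 and HS_L_1 by 0.809, and the other libraries by 1.01 to 1.22. The part of this in the higher shares of library 1 was not tested. The mean was 0.53% ± 0.137 in LS_L and 0.537% ± 0.138 in HS_L (SD, n = 3 each), a difference of -0.00694 percentage points, and a two-sided exact permutation test gave p = 1.0, where 3 against 3 libraries allow no p under 0.1. In 8 such comparisons, over overlap classes and over the members with the most reads, every Benjamini-Hochberg adjusted p of the exact permutation test was 1.0. Members with no overlap held most of these reads, 0.592%, 0.396% and 0.38% of the library in LS_L and 0.579%, 0.346% and 0.454% in HS_L. The 20 features with the most reads took 43.2% to 45.6% of each LS_L library and 40.2% to 42.8% of each HS_L library. Of the reads outside them, the members held 1.21%, 0.841% and 0.81% in LS_L and 1.14%, 0.71% and 0.897% in HS_L.

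**Figure D2:**
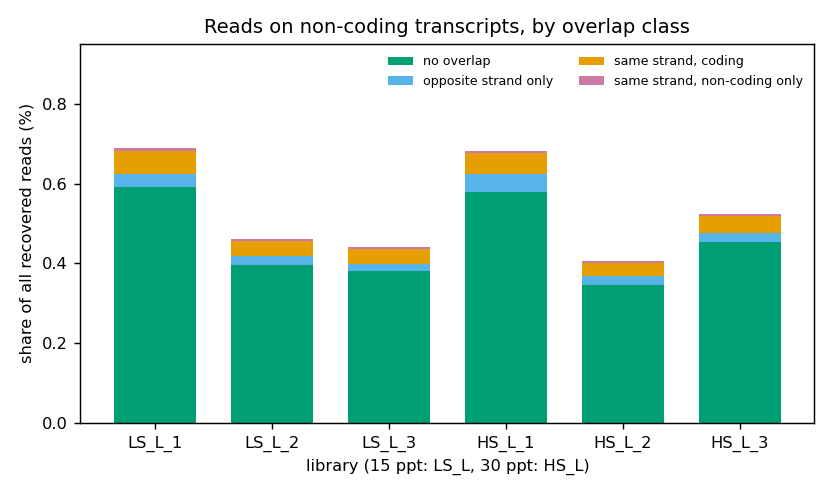
Share of all recovered reads on non-coding transcripts in each library (bars, LS_L libraries left and HS_L libraries right), divided by how the transcripts overlap other features. The bars run between 0.44% and 0.688% in LS_L and between 0.406% and 0.681% in HS_L, and members with no overlap make up most of each.

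A few transcripts carried a large part of the signal. The 10 with the most normalized reads held 43.7%, 46.3% and 49.5% of all member reads in LS_L and 50.3%, 50.1% and 48.6% in HS_L. XR_522182.1 alone, at chromosome 10, 12856280 to 12857499 (plus strand, 432 bases long), held 14.4%, 16.7% and 19.5% of them in LS_L and 17.3%, 18.5% and 22.5% in HS_L. It had 14265, 14187 and 19208 normalized reads in LS_L, against 17409.9, 15387 and 22648 in HS_L. The groups overlapped, with library 3 the highest in both, and the log2 fold change of LS_L over HS_L was -0.21 ± 0.30 (SE; limma, Benjamini-Hochberg adjusted p = 0.956). It starts 722 bases downstream of XM_008318875.1 on the same strand, a coding transcript with 1382, 1119.6 and 1449 normalized reads in LS_L and 773, 952 and 1363 in HS_L. By position, at least 0.5 of the span of XR_522182.1 fell within the protein-coding gene LOC103385093. The overlap was 0.0698 of the joint span, too little to name the transcript by this gene.

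The next transcripts by reads were XR_522669.1 on chromosome 14 with means of 7717 ± 1494 normalized reads in LS_L and 7294 ± 2362 in HS_L, and XR_521408.1 on chromosome 3, in the long non-coding RNA gene LOC103377395, with 6722 ± 761 and 8083 ± 1918 (SD, n = 3 each). XR_522633.1 on chromosome 14, which matched LOC112488045 by position, varied most among libraries of a group, at 5669.7, 2739 and 3838 normalized reads in LS_L and 9138, 4921 and 1470.3 in HS_L. Its highest and its lowest library were both of the HS_L group. XR_521789.1 (LOC103381358) and XR_521650.1 (LOC103380233), both in long non-coding RNA genes by accession, had means of 1405 ± 239 and 1531 ± 156 normalized reads in LS_L, against 1456 ± 411 and 1221 ± 296 in HS_L. XR_523529.1 and XR_523549.1, on unplaced scaffolds and with no match, had 1347 ± 429 and 1229.9 ± 318 in LS_L, against 1199 ± 465 and 1223 ± 460.4 in HS_L. Log2 fold changes of these 7 transcripts lay between -0.24 and 0.35, with limma adjusted p-values of 0.9 or more.

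For a pair of the abundant transcripts the span closely matched the extent of a protein-coding gene. XR_522854.1 (chromosome 16, 9958136 to 9959297, plus strand) matched the position of tmsb4x, which encodes the actin-binding peptide thymosin beta 4. The overlap was 0.897 of the joint span, and the strand of tmsb4x was not compared. It had 4069, 2619 and 2170.5 normalized reads in LS_L, against 3010.2, 687 and 1132 in HS_L. HS_L_1 lay within the LS_L values and the other HS_L libraries below all of them, and library 1 of each group was again the highest, as for the leukocyte marker coro1a. The log2 fold change was 1.09 ± 0.56 (SE), with an adjusted p of 0.8 by limma, and was 1.68 without HS_L_1 and 0.62 without HS_L_2. The part of leukocyte RNA in these levels was not tested. XR_523223.1 (chromosome 19, 7533276 to 7538707, plus strand) lay at smpd1, the gene of acid sphingomyelinase, with an overlap of 0.998 of the joint span. It had 892, 931 and 1077 normalized reads in LS_L, against 1048, 1747 and 1308 in HS_L. The groups overlapped by 1 library, HS_L_1, and the log2 fold change was -0.45 ± 0.23 (SE; limma, adjusted p = 0.801). The coding transcript of smpd1 that starts at the same base, XM_008332669.1, lies wholly within this span on the same strand. It was at 0 in all 6 libraries, but reads on stretches that both share were given to neither. This 0 therefore cannot show whether the coding form was present.

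The libraries of the 2 salinities were then compared transcript by transcript. Of the 370 members with a mean scaled RPKM of at least 1, 0 passed an adjusted p under 0.05 with a log2 fold change beyond 1 (limma on log2 of scaled RPKM plus 1, Benjamini-Hochberg over 9270 features), where 4 of all 9270 features passed, 0.0431%. The limma-voom test on recovered reads also called 0 members. At an unadjusted p under 0.05 there were 34 members (9.19%), against 6.57% of all features. Of these, 22 were higher in LS_L (5.95%, against 3.73% of all features) and 12 were lower (3.24%, against 2.84%). The split was 18 higher and 16 lower with TMM factors, 34 higher and 36 lower among members with a mean RPKM of at least 0.1, and it turned to 14 higher and 21 lower without HS_L_2. LS_L and HS_L libraries did not overlap for 48 members (13.0%), close to the 12.7% of all features, with 27 higher in LS_L (7.81% of all features) and 21 lower (4.88% of all features). The median log2 fold change was 0.05 over the members and 0.03 over all features. A log2 fold change beyond 1 in size was found for 21 of the 370 members and 356 of all 9270 features.

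Spread between libraries was wider for the non-coding transcripts than for the coding ones. The median SD within a group was 0.420 log2 units for the 370 members, against 0.313 for the 8068 coding transcripts tested, at median scaled RPKM levels of 4.22 and 5.02. Similar RPKM does not mean similar reads, because members were shorter. Before the filter, median lengths were 590.5 bases for members and 2150.0 for coding transcripts off W and Z. The part of lower read numbers in the wider spread was not tested. LS_L_1 was the highest of the 6 libraries for 122 members (33.0%), against 23.2% of all features. LS_L_2 was the highest library for 20 members (5.41%), against 8.78% of all features, and HS_L_1 for 51 (13.8%), against 11.8%. By overlap class, an unadjusted p under 0.05, reached by 6.57% of all features, was found for 23 of 264 tested members with no overlap (8.71%), 3 of 51 opposite another feature only (5.88%), 3 of 37 within a coding locus (8.11%) and 5 of 18 that overlapped only non-coding or unclassified features (27.8%). Since the filter took the mean of all 6 libraries, a member could pass it through 1 group or 1 library. More than 50% of the summed level came from 1 library for 11 of the 370 (2.97%), against 2.19% of all features.

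**Figure D3:**
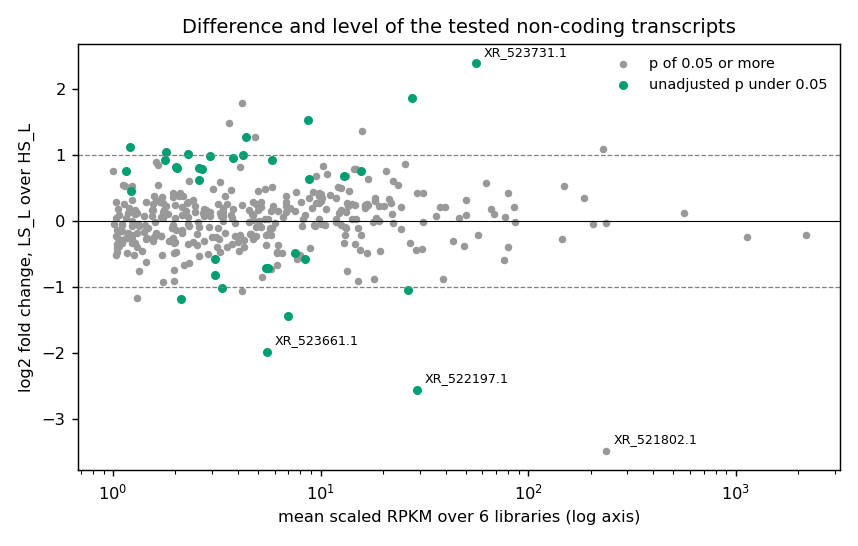
Log2 fold change of LS_L over HS_L (vertical axis) against the mean scaled RPKM over 6 libraries (horizontal log axis) for the 370 tested non-coding transcripts, 1 point each, with the 34 at an unadjusted p under 0.05 in green and dashed lines at -1 and 1. Most points lie between the dashed lines, and 21 of the 370 lie beyond them, against 356 of all 9270 features.

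The transcript with the lowest unadjusted p was XR_522197.1 (LOC103385163, chromosome 10, 14159357 to 14171316, minus strand, 455 bases long). It had 72.2, 53 and 53 normalized reads in LS_L, against 329, 705 and 246 in HS_L. Every LS_L library was lower than every HS_L library, and HS_L_2, where the pancreas genes were also highest, stood highest. In HS_L_3 the pancreas genes summed to 1573, within the 448 to 2223 of LS_L, while XR_522197.1 stood at 246. The part of pancreas RNA in the level of XR_522197.1 was not tested. The log2 fold change was -2.55 ± 0.39 (SE), with an unadjusted p of 0.000348 and an adjusted p of 0.155 by limma, and it was -2.13 without HS_L_2 and -2.87 without HS_L_3, the extremes when single libraries were dropped. Its span faces 3 other non-coding transcripts on the opposite strand, of which XR_522196.1 had 3.32, 1 and 3.46 normalized reads in LS_L against 9.15, 17.1 and 1.06 in HS_L, and XR_522194.1 and XR_522195.1 were at 0. Whether counting used the strand was not given in the sources used here, so reads of overlapping opposite features cannot be told apart. The nearest coding transcript on its strand, XM_008318951.1, had 32.4, 18 and 12.7 normalized reads in LS_L against 38.4, 18.1 and 29.7 in HS_L, and these groups overlapped.

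XR_523661.1 (LOC103399611), 400 bases long, took up bases 16 to 497 of an unplaced scaffold. It had 8.3, 11 and 15 normalized reads in LS_L, against 102, 61.9 and 44.6 in HS_L. The groups did not overlap, and the LS_L libraries were close to each other. The log2 fold change was -1.98 ± 0.30 (SE; limma, adjusted p = 0.155), and it ran between -2.23 and -1.69 when single libraries were dropped.

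In the other direction, the lowest p was that of XR_523731.1 (LOC103399904, a long non-coding RNA gene, chromosome 2, 14337605 to 14350120, minus strand, 387 bases long). It had 397, 764 and 854 normalized reads in LS_L, against 68.6, 123 and 185 in HS_L. The lowest LS_L library stood above the highest HS_L library. The log2 fold change was 2.39 ± 0.43 (SE; limma, unadjusted p = 0.000973, adjusted p = 0.264), and between 2.03 and 2.72 when single libraries were dropped. The nearest coding transcript, XM_008338581.1 of cilp2 (a cartilage matrix protein), starts 1622 bases away on the opposite strand, and it had 9.96, 4 and 2.31 normalized reads in LS_L against 4.57, 1.07 and 2.12 in HS_L.

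Among the 10 members with the lowest p that were higher in LS_L, 9 others had log2 fold changes between 0.76 and 1.87. By limma, their unadjusted p-values lay between 0.00154 and 0.0241 and their adjusted p-values were 0.333 or more. Their groups did not overlap, which choice by low p favours and which 7.81% of all features showed in this direction. XR_522862.1 (chromosome 16, 11199189 to 11199767, plus strand) matched the protein-coding gene LOC112488294 by position, with an overlap of 0.503 of the joint span. It had 45.7, 48 and 58.8 normalized reads in LS_L, against 19.2, 22.4 and 9.55 in HS_L. It ends 39 bases before XM_008328662.1, a coding transcript on the same strand that also did not overlap between groups, at 27.4, 33 and 32.3 in LS_L and 14.6, 13.9 and 4.24 in HS_L, but was under the level needed for the test. XR_521337.1 (chromosome 2, 407 bases long) had 406, 267 and 263 normalized reads in LS_L, against 22.9, 121 and 156 in HS_L, with HS_L_1 far under the rest. Its log2 fold change was 1.87 ± 0.62 (SE), and it was 1.11 without HS_L_1.

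XR_522786.1 (chromosome 15) had 14.9, 7 and 10.4 normalized reads in LS_L, against 4.57, 3.2 and 3.18 in HS_L. It starts 15 bases downstream of the coding transcript XM_008327749.1 on the same strand, which had 72.2, 52 and 42.6 in LS_L against 22.9, 29.9 and 36.1 in HS_L. Both were without overlap between the groups, with log2 fold changes of 0.76 and 0.59, understated at these low levels by the 1 added to RPKM. By position, at least 0.5 of the span of XR_522786.1 fell within the protein-coding gene LOC103391473 (0.0524 of the joint span). Whether both transcripts belong to the same gene was not tested. XR_522065.1 (LOC103384044, a long non-coding RNA gene on chromosome 9) had 33.2, 27 and 35.7 normalized reads in LS_L, against 11.9, 19.2 and 13.8 in HS_L. The coding transcript XM_008317404.1, which lies within its span on the same strand, had the opposite order at a low level, 0.83, 0 and 0 in LS_L against 2.74, 6.4 and 8.49 in HS_L. For XR_523043.1 the neighbour 71 bases away on the same strand, XM_008330893.1, gave a log2 fold change of -0.07, where the non-coding transcript itself, at 5.81, 17 and 16.1 in LS_L and 0.915, 5.33 and 1.06 in HS_L, gave 1.11.

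Among the 10 with the lowest p that were lower in LS_L, the 8 besides XR_522197.1 and XR_523661.1 had log2 fold changes between -1.44 and -0.58. By limma, their unadjusted p-values lay between 0.000684 and 0.0202. Their groups did not overlap, which choice by low p favours and which 4.88% of all features showed in this direction. XR_523027.1 (chromosome 17, 14048323 to 14052391, plus strand, 196 bases long) had 13.3, 11 and 10.4 normalized reads in LS_L, against 25.6, 44.8 and 44.6 in HS_L. Its log2 fold change of -1.44 ± 0.25 (SE) had an adjusted p of 0.235 by limma. XR_522181.1 (chromosome 10) had 9.96, 7 and 4.61 in LS_L, against 16.5, 35.2 and 29.7 in HS_L, and starts 101 bases from gpr157, the gene of a G protein-coupled receptor on the opposite strand. That gene had 55.6, 40 and 56.5 normalized reads in LS_L and 86, 58.7 and 85.9 in HS_L, again without overlap. The log2 fold changes were -1.18 for the non-coding transcript and -0.42 for gpr157, both understated at these low levels by the 1 added to RPKM. The remaining 6 were XR_523408.1, XR_523500.1, XR_523639.1, XR_522737.1, XR_523541.1 and XR_522053.1, of which XR_523500.1, XR_522737.1 and XR_522053.1 belong to long non-coding RNA genes by accession.

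**Figure D4:**
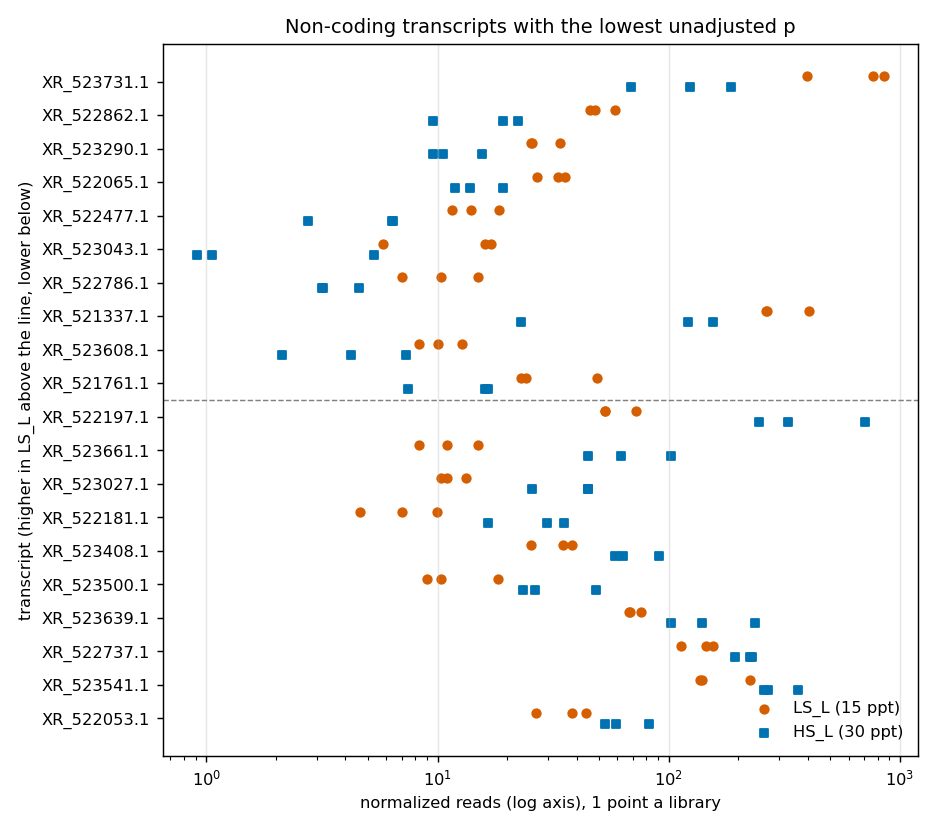
Normalized reads (log axis) of the 20 non-coding transcripts with the lowest unadjusted p, 10 higher in LS_L above the dashed line and 10 lower below it, with 1 point a library (LS_L circles above HS_L squares in each row). In each row the 3 LS_L points and the 3 HS_L points do not overlap, and 0 of the 20 passed the adjusted threshold. Choice by low p favours such separation, and the groups did not overlap for 12.7% of all features.

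Among tested members the log2 fold change largest in size, -3.48 ± 2.61 (SE), belonged to XR_521802.1, which was named after its values were seen. It had 0, 0 and 1.15 normalized reads in LS_L, against 2400.0, 1.07 and 0 in HS_L. A single library, HS_L_1, held nearly all of its reads, the other HS_L libraries stood at the level of LS_L, and the adjusted p by limma was 0.899. The feature is 92 bases long within chromosome 8, 1545719 to 1561535 (plus strand), and its span holds XM_008313815.1 on the opposite strand, which had 361369, 402649 and 598378 normalized reads in LS_L and 371911, 153742 and 119683 in HS_L. With it, HS_L_1 had the highest share of reads on members facing another feature on the opposite strand only, 0.0457%, against 0.0219% and 0.0224% in the other HS_L libraries and 0.0311%, 0.0224% and 0.0189% in LS_L. Without it, all members took 0.53% ± 0.137 of the reads in LS_L and 0.531% ± 0.129 in HS_L (SD, n = 3 each).

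A second readout of the same libraries came from assembled transcripts, for which the study deposited FPKM values (fragments divided by transcript length and library size) beside transcript starts, ends and splicing events. The FPKM of a member in a library is here the mean over all events listed for it. Of the events listed for members, 54.7% to 62.1% had an FPKM of 0, depending on the library. The event readout named 1299 of the 2364 members in at least 1 library and 1140 in all 6. Over these 1140 the mean FPKM and the mean RPKM had a Spearman correlation of 0.426, as a description only, since both come from the same reads. Of them, 419 were listed at an FPKM of 0 throughout, 157 had a mean RPKM of at least 1, and 17 of those 157 were listed at 0. A mean FPKM over 10 was reached by 87, and 34 of these had a mean RPKM under 1. The 34 consisted of 17 that shared their strand with another feature, 14 others on unplaced scaffolds, and 3 that were neither. For 81 members the mean FPKM was at least 1 although no read was counted.

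**Figure D5:**
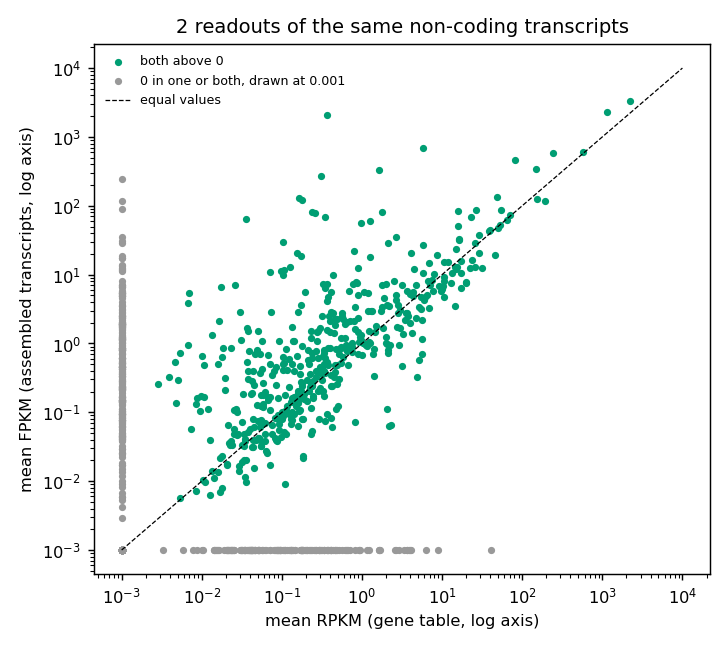
Mean FPKM (vertical log axis) against mean RPKM of the gene table (horizontal log axis) for 1140 non-coding transcripts named in all 6 libraries, 1 point each. The FPKM of a member is the mean over all its listed events of assembled transcripts. Values of 0 are drawn at 0.001 in grey, and a dashed line marks equal values. Points with an FPKM over 10 but an RPKM under 1, 34 in number, lie well above the line.

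Of the 20 transcripts with the lowest p in either direction, 14 had an FPKM in all 6 libraries, and the group means had the order seen in the counted reads for all 14. The LS_L and HS_L libraries did not overlap in FPKM for 5 of them (XR_522197.1, XR_523661.1, XR_523731.1, XR_523290.1 and XR_521337.1) and overlapped for the other 9, among them XR_523639.1 at 69.6, 60.5 and 53.3 FPKM in LS_L against 107, 54.8 and 172 in HS_L. XR_522197.1 had 8.2, 3.18 and 3.15 FPKM in LS_L against 34, 45.9 and 29.6 in HS_L, and XR_523731.1 had 160.1, 189.6 and 134 in LS_L against 0, 35.3 and 0 in HS_L. XR_523661.1 had 359, 342 and 327 FPKM in LS_L against 1451, 685 and 1004 in HS_L, far over its RPKM of 1.44, 1.49 and 1.67 in LS_L and 17.2, 7.57 and 5.78 in HS_L. These values are not independent of the reads above. The widest gap of a member with almost no counted reads was that of XR_523714.1 (LOC103399803, a long non-coding RNA gene, 130 bases long), with 8116, 0 and 2216 FPKM in LS_L and 2076, 0 and 0 in HS_L at an RPKM of 1.33, 0 and 0.396 in LS_L and 0.476, 0 and 0 in HS_L. For XR_522182.1 the mean FPKM was 3031 in LS_L and 3526 in HS_L, above its counted RPKM, XR_521408.1 had 2139 in LS_L and 2444 in HS_L, and XR_523692.1 (LOC103399722) had 335 in LS_L and 577 in HS_L. The FPKM of the LS_L and HS_L libraries overlapped for XR_522182.1, XR_521408.1, XR_523692.1 and XR_523714.1.

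Genes that make or degrade non-coding RNA gave 0 calls by limma in either direction, and 0 by limma-voom. The transcript with the most reads stood for each gene. Of 15 genes of nonsense-mediated decay, 14 were found and 8 could be tested, with a median log2 fold change of -0.09 against 0.03 over all features, and 1 had an unadjusted p under 0.05, where 6.57% of all features did. This was magoh, of the exon junction complex that marks spliced mRNA, with 731, 528 and 619 normalized reads in LS_L against 442, 368 and 368 in HS_L (log2 fold change 0.65, adjusted p = 0.713). Of 14 genes of the RNA exosome, the complex that degrades RNA from its 3' end, 11 were found and 10 tested, with a median of 0.13. The 1 with an unadjusted p under 0.05 was exosc7, a subunit of its ring, at 255, 195 and 229 normalized reads in LS_L against 156, 145 and 157 in HS_L (log2 fold change 0.50, adjusted p = 0.722). LS_L libraries were above HS_L libraries for magoh and for 4 of the 10 exosome genes tested, against 7.81% of all features. Besides exosc7, the exosome genes were exosc4, exosc8 and dis3, with log2 fold changes of 0.27, 0.34 and 0.39 and adjusted p-values of 0.836, 0.783 and 0.767. Of 10 small RNA genes 9 were found and 4 tested, with a median of -0.02 and 0 at an unadjusted p under 0.05. In the opposite direction, drosha was lower in LS_L without overlap (log2 fold change -0.37, limma adjusted p = 0.856), as were 4.88% of all features. The separation was narrow, since LS_L_1 and HS_L_1 both rounded to 203 normalized reads. The genes upf3a, upf3b, smg5, smg9, exosc9, dicer1 and tarbp2 were at 0 reads in all 6 libraries. Reads that fell on more than 1 feature were given to neither, so a 0 here does not show that a gene was silent. Whether overlap with other features emptied these genes was not tested.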

How the data were processed

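RNA of 6 liver libraries was sequenced. Per the paper's methods and the labels, the authors aligned reads with TopHat 2.0.9, which runs Bowtie2 2.0.6, and counted uniquely mapped reads with HTSeq 0.6.1 in union mode. The authors deposited RPKM per feature and library, a signal per group (the mean of reads divided by size factors) with feature lengths, and FPKM of assembled transcripts at transcript events. The deposited signal served as a check: 99.99% of features matched the recovered means within 0.1%.

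Reads were recovered as RPKM times length divided by the value of 1 read, and 99.83% to 99.89% of values came out whole (within 0.05 reads). RPKM was scaled by size factors (medians of ratios). Features with a mean of at least 1 were fitted with limma (trend and robust) on log2(scaled RPKM + 1), so fold changes of low features are understated, with Benjamini-Hochberg adjustment over 9270 features. A call was made at an adjusted p under 0.05 where the log2 fold change was also beyond 1. On simulated data for this comparison with 9270 features, 188 of 200 changed by a log2 fold change of 2 were called (94.0%), 0 with the wrong sign, and 9 unchanged features were called. The simulation gave every feature the same dispersion of 0.1 and changed only features above a floor of reads. It held no differences of tissue between libraries. The 94.0% therefore does not carry over to the members in the real libraries.

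Overlaps were counted from the deposited coordinates (Cse_v1.0), and 20 tRNA rows that pool copies over long spans were left out of them. The members named in the text are the 10 with the most normalized reads, the 10 with the lowest unadjusted p in each direction, the 3 in the study's table of differences, and the 5 with the widest gap between FPKM and RPKM. XR_521802.1 and the pairs in the closing section were chosen after their values were seen. Members and lists were chosen with earlier results of these data known. The deviations of same-numbered libraries from their group means correlated at 0.173, 0.166 and 0.231. The number comes from the sample labels, and 3 of the 6 crossed pairs were also over 0.1. A fit with this number as a replicate block was an alternative. Others were TMM factors, library size only, other filters and pseudocounts, limma-voom, features without same-strand overlap only, removal of the 20 features with most reads and of each library. No transcript sequence was used here, and promoters were not analysed. The tools were limma 3.58.1 under R 4.3.3, and scipy 1.17.1, numpy 2.4.6, matplotlib 3.10.9 and pandas 2.3.3 under Python 3.11.15.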

Additional observations from a re-analysis of the deposited data

How the results depend on the processing

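The number of members called was 0 under each of the 17 alternatives, with a lowest adjusted p by limma between 0.0751 (library size only) and 0.737 (without LS_L_2). The replicate block gave 0 calls too and changed no call of a named member, with 47 members at an unadjusted p under 0.05 against 34 without the block. That number was 19 with at least 10 reads in every library, 70 with a mean RPKM of at least 0.1 and 88 with no filter, where 278, 889 and 1392 members were tested, and it ran between 23 and 44 with each library left out. Of the members at that threshold, 64.7% were higher in LS_L, against 52.9% with TMM factors, 51.1% with no filter, 48.6% at a mean RPKM of at least 0.1 and 40% without HS_L_2. Of 32 named members with a fold change, 5 changed sign somewhere. The log2 fold change of XR_523549.1 was -0.02 with TMM factors. Without single libraries, XR_522669.1 reached -0.18 and 0.30, XR_522633.1 -0.78 and 0.53, XR_521789.1 -0.25 and 0.17, XR_523529.1 -0.16 and 0.42, and XR_523549.1 -0.22 and 0.31. Detection stood at 1392 members with at least 1 read, 588 with a read in every library, 843 with more than 3 reads in a library, and 1294 to 1376 without single libraries (lowest without HS_L_1, chosen after seeing the data, as was the share of reads without single libraries). Empty members were 67.0% of those with an overlap on their strand, 68.4% where it covered at least 0.5 of their length and 55.8% of those with an overlap on either strand. The Spearman correlation of FPKM with RPKM was 0.411 with the highest FPKM of a member. The LS_L minus HS_L difference in read share ran between -0.0858 and 0.0652 percentage points without single libraries.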

Other observations

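The differences of non-coding transcripts were set beside those of the nearest coding transcript, with pairs chosen after their values were seen. Of the 719 members on chromosomes that overlapped no feature, 86 lay within 1000 bases downstream of a coding transcript on the same strand, 74 within 1000 bases upstream and 110 within 1000 bases on the opposite strand. Both features were tested for 31, 12 and 20 of these pairs, and the log2 fold changes had the same sign in 19, 9 and 15 of them. Across those pairs the Pearson correlation of the log2 fold changes was 0.75 downstream (Spearman 0.49), 0.85 upstream (0.76) and 0.54 on the opposite strand (0.60). Pairs with large fold changes weigh heavily in the Pearson values, such as XR_522902.1 and lss downstream (1.48 and 3.56). Upstream, XR_522751.1 and its neighbour had 1.27 and 1.35, and correlations without such pairs were not computed. For scale, log2 fold changes were above 0 for 203 of the 370 tested members and 5023 of all 9270 features. Unrelated pairs were not compared. At any distance the sign was the same in 30 of 50, 11 of 15 and 20 of 33 pairs. Pearson correlations there were 0.62, 0.77 and 0.26 (Spearman 0.29, 0.64 and 0.23). These are descriptions across genes from the same 6 libraries, with no test.

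The widest pair was XR_522902.1 (LOC103392389, a long non-coding RNA gene on chromosome 16), 761 bases downstream of lss, which encodes lanosterol synthase of cholesterol synthesis. It had 119.6, 7 and 9.22 normalized reads in LS_L, against 2.74, 4.27 and 5.3 in HS_L, while lss had 1319, 3433 and 2923 in LS_L against 176, 187 and 109 in HS_L. Neither overlapped between groups, but LS_L_1 was the highest library for the non-coding transcript and the lowest of its group for lss. The log2 fold changes were 1.48 (limma adjusted p = 0.826) and 3.56 (adjusted p = 0.0581).

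XR_522230.1 on chromosome 10 lay 975 bases downstream of the coding transcript XM_008319483.1 of csf1b, a macrophage growth factor gene. It had 75.6, 28 and 45 normalized reads in LS_L, against 0.915, 0 and 47.7 in HS_L, and the csf1b transcript had 69.7, 75 and 88.8 in LS_L against 2.74, 3.2 and 50.9 in HS_L. HS_L_3 stood with the LS_L libraries for the non-coding transcript and just under them for csf1b, and HS_L_1 and HS_L_2 stood far lower for both. The log2 fold changes were 1.78 and 1.63, with limma adjusted p-values of 0.765 and 0.607.

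XR_522751.1, 223 bases upstream of LOC103391003 on the same strand, had 110.4, 20 and 23.1 normalized reads in LS_L against 15.6, 10.7 and 10.6 in HS_L. LOC103391003 had 1146, 186 and 164 in LS_L against 209.5, 69.3 and 109 in HS_L. LS_L_1 was far above the other libraries for both. The groups overlapped for LOC103391003, where HS_L_1 stood above LS_L_2 and LS_L_3, and not for XR_522751.1. Log2 fold changes were 1.27 for XR_522751.1 and 1.35 for LOC103391003, with limma adjusted p-values of 0.769 and 0.829. In another pair, XR_522966.1, 10 bases from XM_008329697.1 on the opposite strand, had 19.1, 7 and 11.5 in LS_L against 3.66, 17.1 and 11.7 in HS_L, where XM_008329697.1 had 407, 446 and 452 in LS_L and 216, 260.3 and 301 in HS_L. The groups overlapped for the non-coding transcript and not for its coding neighbour.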
